A study of Mus musculus with 10 samples.

Results

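The regions described here are the broad H3K9ac peaks of DMSO-treated mouse ES cells that still held a peak after treatment with MB-3, an inhibitor of the histone acetyltransferase Kat2a. A DMSO peak counted as broad at a width of at least 1200 bp and as kept when an MB-3 peak overlapped it by at least 1 bp. Of 11724 DMSO peaks, 887 were broad (7.57%) and 790 of these were kept, which is 6.74% of all DMSO peaks and 89.1% of the broad ones (95% Wilson interval 86.8 to 91.0%, counting error only). The members were thus chosen by peak width in DMSO and by overlap with the MB-3 list, so widths, coverage and edges are given as descriptions without a test. The 1200-bp limit cut through a continuum. Just inside it lay a 1200-bp peak near Rnf168, of which MB-3 peaks covered 70.2%, and just outside it a 1198-bp peak near Gpc5, of which 37.7% was covered.

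The cells were TNGA, a mouse ES cell line in which 1 allele of Nanog drives a GFP reporter, cultured in serum and LIF. All cultures were exposed for 48 h, the MB-3 group to 100 μM of the inhibitor and the DMSO group to vehicle alone, with 0.1% DMSO by volume in both. H3K9ac was measured by chromatin immunoprecipitation sequencing with peaks called on duplicates merged within each treatment, so that 1 peak list stood for each treatment (11724 peaks in DMSO and 4673 in MB-3), with positions but no heights. RNA was sequenced in 3 cultures per treatment (A, B and C), at a depth that ran from 42270312 counts in MB-3 C to 51137896 counts in DMSO B. The design limits the comparison to a single line, dose and time, and to an inhibitor rather than a loss of the Kat2a gene, whose own RNA stood at 37.5 RPKM in DMSO and 37.2 RPKM in MB-3 (RPKM, reads scaled to library size and divided by exon length). The ES cell label fitted the RNA, as the summed level of Pou5f1, Nanog, Sox2, Zfp42 and Esrrb was 2471 to 2628 CPM (counts scaled to library size) in the 6 libraries.

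Acetylation of lysine 9 on histone H3 marks active promoters and the first part of the transcribed gene, and is read by bromodomain and YEATS domain proteins that aid transcription. Kat2a (Gcn5) and its close relative Kat2b (Pcaf) place much of it as the catalytic subunits of the SAGA and ATAC complexes, and histone deacetylases remove it. Wide domains of the mark tend to lie over promoters rich in CpG dinucleotides, where many ubiquitously expressed genes and many cell identity genes start.

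The promoters of 6 nearest genes are printed because the peaks and RNA of these genes are described below. They are RefSeq promoters on GRCm38.p6, each running from 250 bp before to 50 bp after a start site and written 5′ to 3′ on the strand of the gene, with CpG dinucleotides in capitals. Spry2 lies at chr14:105896770-105897069 on the minus strand, Mycn at chr12:12941787-12942086 on the minus strand, Tet1 at chr10:62887275-62887574 on the minus strand, Dusp6 at chr10:99262981-99263280 on the plus strand, Socs3 at chr11:117969317-117969616 on the minus strand and Pou5f1 at chr17:35505782-35506081 on the plus strand.
Spry2: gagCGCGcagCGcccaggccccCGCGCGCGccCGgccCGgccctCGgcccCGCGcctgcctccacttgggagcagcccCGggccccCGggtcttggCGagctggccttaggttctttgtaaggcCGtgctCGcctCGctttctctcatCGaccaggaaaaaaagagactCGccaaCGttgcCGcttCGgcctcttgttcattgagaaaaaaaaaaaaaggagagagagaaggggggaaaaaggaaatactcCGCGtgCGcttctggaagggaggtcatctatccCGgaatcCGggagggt
Mycn: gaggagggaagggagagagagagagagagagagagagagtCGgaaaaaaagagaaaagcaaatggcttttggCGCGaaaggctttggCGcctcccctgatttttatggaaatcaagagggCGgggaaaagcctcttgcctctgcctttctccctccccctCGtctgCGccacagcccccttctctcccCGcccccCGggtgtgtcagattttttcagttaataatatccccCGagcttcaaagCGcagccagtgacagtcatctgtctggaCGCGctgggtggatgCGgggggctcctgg
Tet1: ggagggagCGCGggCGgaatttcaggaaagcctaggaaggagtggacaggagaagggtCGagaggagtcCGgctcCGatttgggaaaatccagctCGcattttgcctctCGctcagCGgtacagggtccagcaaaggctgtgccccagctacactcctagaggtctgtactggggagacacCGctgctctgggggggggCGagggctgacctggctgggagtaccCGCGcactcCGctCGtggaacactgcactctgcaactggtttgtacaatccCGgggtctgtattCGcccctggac
Dusp6: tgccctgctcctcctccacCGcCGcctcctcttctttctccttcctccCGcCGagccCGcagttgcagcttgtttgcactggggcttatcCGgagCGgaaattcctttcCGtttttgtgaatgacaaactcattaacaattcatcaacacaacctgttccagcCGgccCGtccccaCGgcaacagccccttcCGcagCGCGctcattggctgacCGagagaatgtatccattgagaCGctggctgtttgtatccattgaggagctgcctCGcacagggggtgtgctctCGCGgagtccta
Socs3: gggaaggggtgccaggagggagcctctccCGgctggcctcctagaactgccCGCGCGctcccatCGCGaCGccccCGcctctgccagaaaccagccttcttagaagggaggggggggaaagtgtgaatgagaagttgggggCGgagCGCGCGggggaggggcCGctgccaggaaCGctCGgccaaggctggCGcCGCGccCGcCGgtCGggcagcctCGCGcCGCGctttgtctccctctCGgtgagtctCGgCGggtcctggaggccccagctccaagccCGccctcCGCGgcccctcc
Pou5f1: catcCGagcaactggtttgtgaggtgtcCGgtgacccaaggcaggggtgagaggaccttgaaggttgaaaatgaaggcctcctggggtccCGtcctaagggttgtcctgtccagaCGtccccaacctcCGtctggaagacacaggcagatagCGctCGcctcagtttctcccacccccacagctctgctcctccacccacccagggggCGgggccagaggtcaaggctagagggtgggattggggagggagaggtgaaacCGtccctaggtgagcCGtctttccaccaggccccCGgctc
These 300-base windows held 28 CpG for Spry2, 14 for Mycn, 17 for Tet1, 19 for Dusp6, 31 for Socs3 and 11 for Pou5f1. Over the 281 nearest genes of kept broad peaks with a promoter in the table, of 327 looked up, the median was 24 CpG (quartiles 18 and 32), against 7 over all 27025 genes and 13 over 17492 protein-coding genes. Genes nearest to narrower DMSO peaks that were lost had a median of 22 (n = 556), which is near the value for kept broad peaks. The letters CCGGAA, the core of ETS factor sites, which read TTCCGG on the opposite strand, stood in 36.7% of the 281 promoters, in 15.2% of all promoters, in 19.1% of protein-coding ones and in 27.5% of those near narrower lost peaks. A GC box, GGGCGG or on the opposite strand CCGCCC, stood in 66.2%, 35.9%, 46.3% and 73.6% in the same order, and a TATA box, TATAAA or on the opposite strand TTTATA, in 7.47%, 14.2%, 13.3% and 4.32%. Such matches describe the windows and do not identify bound sites. Peak positions are on mm9 and promoters on GRCm38, so whether a given peak contains a given start site was not analysed here.

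The kept broad peaks made up 17.5% of all DMSO peak sequence, 1302742 of 7451033 bp, and received 1059 of the 4673 MB-3 peaks (22.7%) with 32.1% of MB-3 peak sequence. Their median width was 1507.5 bp (quartiles 1324 and 1816, range 1200 to 3649), against a median of 528 bp over the whole DMSO list. The 97 broad peaks without an MB-3 peak had a median width of 1355 bp. The share kept was 84.4% from 1200 to under 1500 bp, 92.5% from 1500 to under 2000 bp and 97.8% at 2000 bp or more, and it was 31.5% for narrower DMSO peaks (3413 of 10837). Wider peaks also offer more sequence for an overlap of 1 bp, whose part in this gradient was not tested.

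Kept peaks lay on every chromosome but Y, which had 4 DMSO peaks in all. Chromosome 11 held the most, 84, followed by chromosomes 2 and 7 with 60 each. As a share of the DMSO peaks of a chromosome, members ranged from 3.96% on X (12 of 303) to 9.85% on chromosome 6 (52 of 528), with 95% Wilson intervals of 2.28 to 6.79% and 7.59 to 12.7%. Of the members, 63.2% had another DMSO peak within 1000 bp, against 52.8% of all DMSO peaks. Of those 596 neighbours 46.8% overlapped an MB-3 peak and 8.05% were themselves broad.

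MB-3 peaks left most of these regions marked but narrower. They covered a median of 57.0% of a member (quartiles 39.2 and 72.9%), or 883 bp, and 57.2% of the sequence of all members together. Coverage and loss here refer to called intervals and not to amounts of acetylation. Over the whole lists MB-3 peaks were narrower too (median width 416 bp, against 528 bp in DMSO). The study merged its duplicates because read numbers were rather low. The part of read depth or enrichment in the called widths was not tested. At least 25% was covered in 728 members, at least 50% in 482 and at least 90% in 40, and 1 was covered in full. That peak lay at chr5:18303960-18305293, where a single MB-3 peak reached 9 bp past its left edge and 107 bp past its right edge. At the other end, the 1492-bp peak at chr3:132346322-132347813 kept 3.35% of its sequence, the tip of an MB-3 peak that began 238 bp to its left. The covered share hardly varied with width (Spearman 0.08 over 790 peaks of the same 2 lists), with medians of 56.1%, 54.8% and 63.3% in the 3 width classes. Narrower kept peaks had a median of 61.7%.

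**Figure D1:**
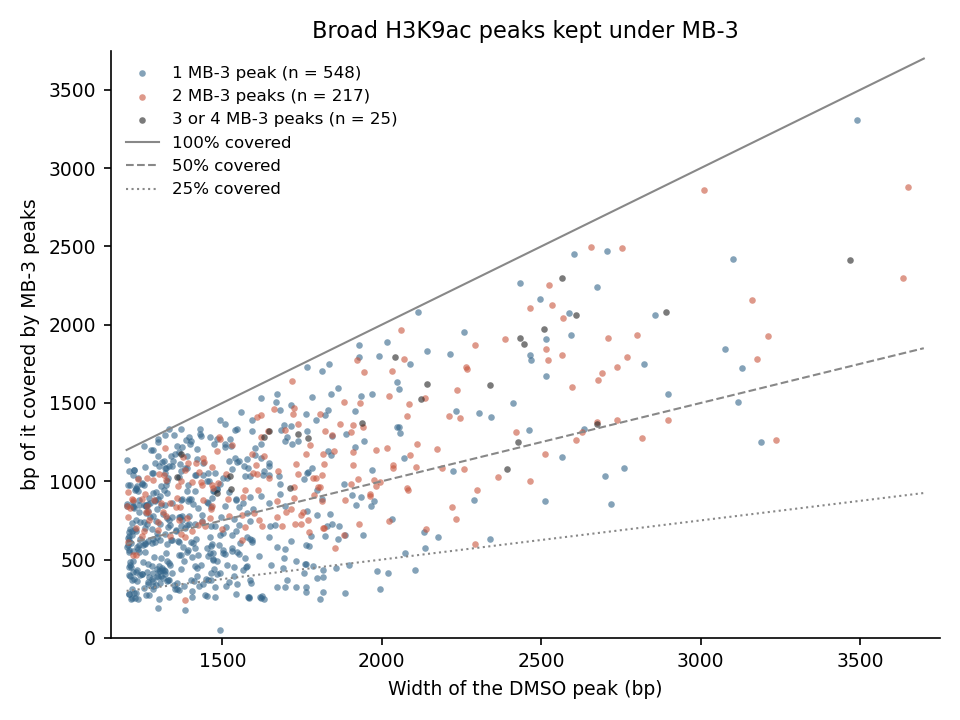
Width of each kept broad DMSO peak (x axis, bp) and the number of its base pairs covered by MB-3 peaks (y axis, bp), with 1 point per peak, coloured by the number of MB-3 peaks on it. Grey lines mark 100%, 50% and 25% of the width, and 482 of the 790 points lie on or above the 50% line.

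Most of the uncovered sequence lay at the ends. In the 548 members with 1 MB-3 peak all of it did so by definition, as an inner gap needs several MB-3 peaks. Of the 557282 bp of members without an MB-3 peak, 487521 bp (87.5%) lay outside the outermost MB-3 peak edges and 69761 bp (12.5%) in gaps between MB-3 peaks. The median loss was 203.5 bp at the left edge and 198 bp at the right edge in genome order, and 693 members (87.7%) were trimmed at both. With the edges of each peak sorted by loss, the median was 445 bp at the more trimmed edge and 87 bp at the other, an order that the sorting itself fixes. Over 500 bp at 1 edge and under 100 bp at the opposite one were lost in 137 members. In 94 members (11.9%) an MB-3 peak reached past an edge, by a median of 47 bp, and in 5 it did so at both.

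Turned by the strand of the nearest gene, the loss leaned to the downstream side. Over the 347 members with a nearest gene in the annotation, the median loss was 127 bp (quartiles 61 and 334) at the upstream edge and 314 bp (117.5 and 531.5) at the downstream edge, and the downstream edge lost more in 225 members (64.8%, Wilson interval 59.7 to 69.7%). A loss of over 500 bp occurred downstream in 103 members and upstream in 48, and it came with under 100 bp at the opposite edge in 47 and 10 of them. An MB-3 peak reached past the downstream edge in 24 members and past the upstream edge in 17. Genes on the plus strand had medians of 137 bp on the left and 315 bp on the right (n = 157), and those on the minus strand 311.5 bp on the left and 119 bp on the right (n = 190), so the side followed the strand. Names for 204 of these peaks came through an MB-3 peak, which need a mark that stayed. In the 143 named from the DMSO list itself the medians were 118 bp upstream and 287 bp downstream, with the downstream edge losing more in 62.2%. Narrower kept peaks named from the same list showed 84 bp and 117 bp, and 55.1% (n = 583).

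Single loci show the pattern at its extremes. The wider of 2 members near Tet1, which encodes an enzyme that oxidises methylated cytosine, lay at chr10:62347562-62350320 and lost 1453 bp downstream and 220 bp upstream. The peak near Hsp90aa1, a cytosolic chaperone, at chr12:111938606-111940737 lost 1389 bp downstream and 65 bp upstream. Irf2bpl, which encodes an interferon regulatory factor 2 binding protein-like factor, had a 2897-bp peak at chr12:88222821-88225717 that lost 1326 bp downstream and 13 bp upstream. At Pou5f1, the gene of the pluripotency factor Oct4, the 2514-bp peak at chr17:35642941-35645454 lost 685 bp downstream and 155 bp upstream. The reverse occurred near Cox20, a mitochondrial assembly factor, where 1368 bp were lost upstream and 13 bp downstream of a 1631-bp peak. The RNA counted for Cox20 was near the floor, with a mean of 0.21 RPKM in DMSO, and was too low to be tested.

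**Figure D2:**
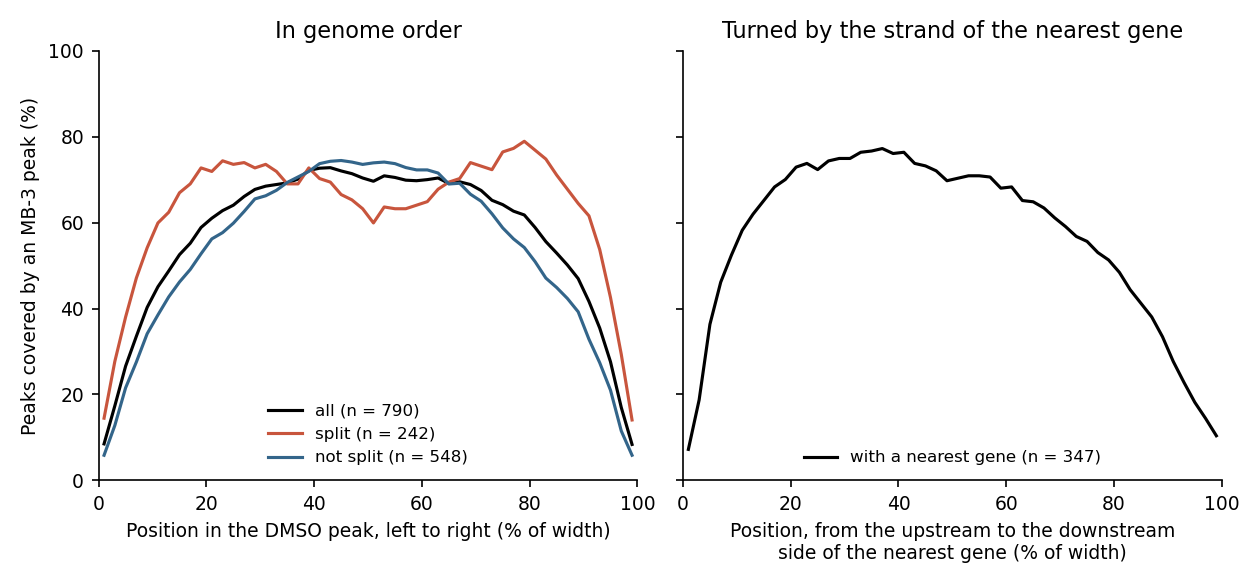
Share of kept broad peaks covered by an MB-3 peak (y axis, percent) at each position along the DMSO peak (x axis, percent of its width, in steps of 2 percent). The left panel is in genome order, for all 790 peaks and for split and unsplit ones, and the right panel runs from the upstream to the downstream side of the nearest gene for 347 peaks. Coverage is highest at 72.8% near position 43 in genome order, and at 77.2% near position 37 by strand, where it falls to 7.20% at the upstream and 10.4% at the downstream end.

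In 242 members (30.6%, Wilson interval 27.5 to 33.9%) the single DMSO peak corresponded to several MB-3 peaks, 217 with 2, 22 with 3 and 3 with 4. Among narrower kept peaks 3.05% were split. The 270 gaps had a median length of 206 bp (quartiles 106 and 322, range 49 to 1376) and 128 of them were under 200 bp. They were centred at a median of 50.4% of the width from the left edge. Split members were wider than unsplit ones (medians 1759 and 1443 bp) and more of them was covered (63.4% and 52.1%), and the split share was 18.3%, 34.4% and 59.5% in the 3 width classes. Edge loss was smaller in split members, with medians of 98 bp upstream and 131 bp downstream (n = 111), against 150 bp and 374.5 bp in unsplit ones (n = 236). The measure itself favours this order, since it runs to the outermost edge of all MB-3 peaks on a member. A member is counted as split whenever the peak caller wrote separate intervals, so a short gap can turn on its calling threshold.

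The widest members ranged from unbroken to widely parted. The widest of all, 3649 bp at chr9:64019713-64023361, held 2 MB-3 peaks 214 bp apart that covered 79.0% of it. Spry2, an inhibitor of receptor tyrosine kinase signalling, had the widest member with a gene name, 3636 bp at chr14:106292602-106296237, in which MB-3 peaks of 563 bp and 1737 bp were parted by 939 bp. Enc1, which encodes an actin-binding protein of the Kelch family, had a 3469-bp peak at chr13:98252727-98256195 that broke into 4 MB-3 peaks of 514, 981, 612 and 305 bp. Pim3, a serine/threonine kinase gene, kept 39.1% of its 3237-bp peak at chr15:88692911-88696147 in pieces of 820 bp and 445 bp. The peak of Rpl30 at chr15:34369782-34372957 had the longest gap, 1376 bp, with MB-3 peaks at both of its ends. Brd2, a bromodomain reader of acetylated histones, was the opposite, with 95.1% of 3011 bp at chr17:34256557-34259567 covered on either side of a 70-bp gap.

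**Figure D3:**
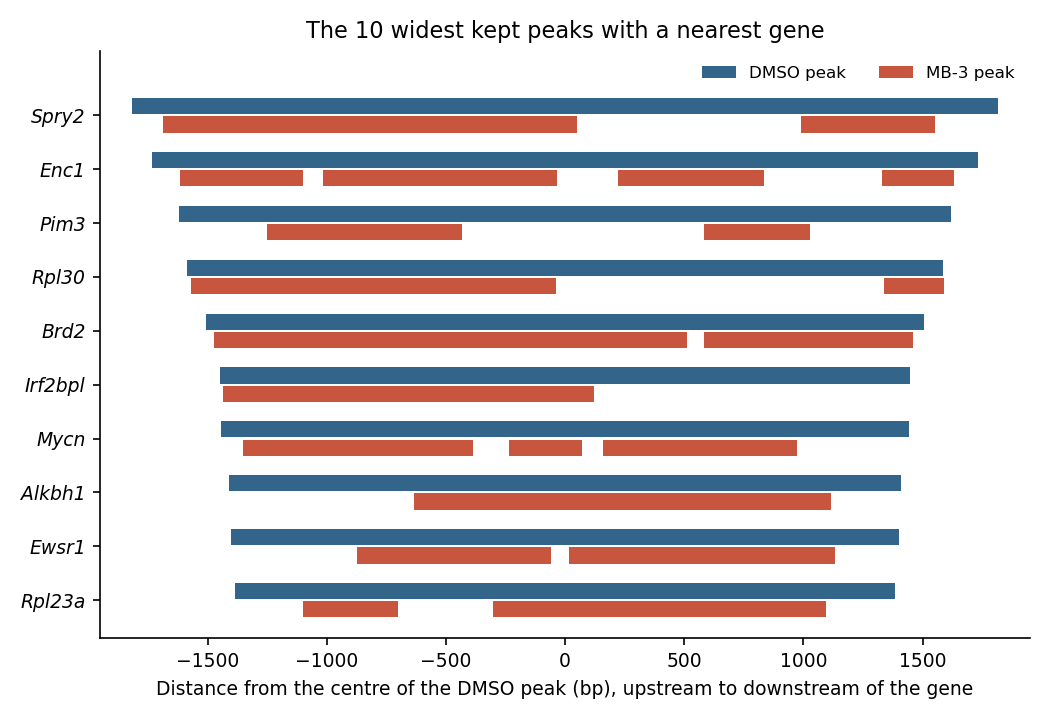
Positions of the DMSO peak (blue) and the MB-3 peaks on it (red) for the 10 widest kept broad peaks with a nearest gene, drawn to scale against distance from the centre of the DMSO peak (x axis, bp), with the upstream side of the gene on the left. Coverage runs from 39.1% at Pim3 to 95.1% at Brd2, and 8 of the 10 hold more than 1 MB-3 peak.

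A nearest gene was at hand for 350 members, all those on chromosomes 1, 10 to 13, 15 and most on 14, 16 and 17, and was matched to the annotation for 347 of them, giving 327 genes. For 13 of the 350 the assignment listed another gene too. The other 440 members were described by position only. Of the 327 genes 19 had more than 1 member, Tgif1 with 3 and the rest with 2. Neighbouring members of 1 gene made 20 pairs, 5 of them within 1000 bp of each other. At Dusp6, which encodes a phosphatase that switches off ERK, the members at chr10:98723415-98725553 and chr10:98725977-98727798 were 423 bp apart and lost 1198 bp and 1032 bp at their outer edges but 113 bp and 141 bp at the edges facing each other. At Rack1, a ribosome-bound scaffold protein gene, members 250 bp apart lost 463 bp and 697 bp at the outer edges and 240 bp and 86 bp at the inner ones. Over the 20 pairs the outer edges lost more in 12, with medians of 711 bp for both outer edges together and 362 bp for both inner ones. Dusp6 and Rack1 were singled out from the pairs after their values were seen.

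The nearest genes were strongly expressed. In the stretch where every DMSO peak had a name (1999 peaks on chromosomes 1 and 10 and most of 11), the nearest genes of kept broad peaks had a median level of 28.7 RPKM in DMSO (upper quartile 73.0, n = 133 genes). The median was 8.69 RPKM for broad lost peaks (n = 12), 15.7 RPKM for narrower kept peaks (n = 438) and 6.36 RPKM for narrower lost peaks (n = 672), with each gene counted once, in the first of these classes that it had. All 20027 genes tested had a median of 3.60 RPKM, and without division by exon length the order of kept broad against narrower lost peaks was the same (medians 154 and 29.4 CPM). RNA took no part in choosing the peaks, and genes are not replicates, so these levels are given without a test.

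**Figure D4:**
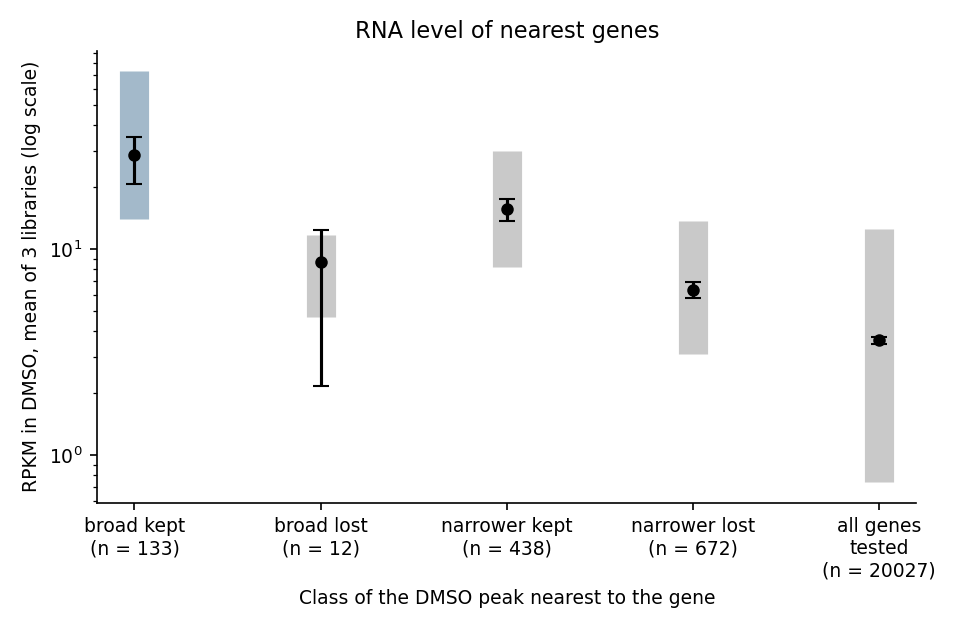
RNA level in DMSO (y axis, RPKM on a log scale, mean of 3 libraries) of genes nearest to 4 classes of DMSO peak on the fully named stretch, beside all genes tested. Points are medians with their 95% order-statistic intervals and bars span the quartiles, and the median of 28.7 RPKM for kept broad peaks is the highest of the 5.

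Among all 323 tested nearest genes of members the median was 26.3 RPKM, 51 stood at 100 RPKM or more and 12 below 1 RPKM. The level was weakly related to the shape of the peak. Spearman coefficients over 343 peak and gene pairs were 0.11 with width and 0.16 with covered share, values that share 1 RNA data set and some genes. Medians were 20.6 RPKM for peaks covered by up to 46.8%, and 32.4 RPKM for those covered by more than 68.8%, and they were 30.7 RPKM for split and 23.7 RPKM for unsplit peaks. The highest level was that of Hsp90ab1, a cytosolic chaperone, with 2111, 2290 and 2004 RPKM in DMSO A, B and C and 2105, 2278 and 2206 RPKM in MB-3, so that the groups overlapped in full. Its 2257-bp peak at chr17:45708536-45710792 kept 47.9%, in pieces 51 bp apart. The lowest was B3gnt2, a glycosyltransferase gene, at 0.104 ± 0.028 RPKM in DMSO (SD, n = 3), near a 1695-bp peak of which 30.1% was covered.

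MB-3 was compared with DMSO in edgeR over 20027 genes, of which 41 passed an adjusted p of 0.05 (0.205%), 20 higher (0.0999%) and 21 lower (0.105%) in MB-3. Of the 327 nearest genes 326 were counted and 323 passed the filter on low counts, and 1 of the 323 passed the test (0.31%), Socs3, which was lower. Allowing for differences between A, B and C in the edgeR fit raised this to 44 of the 323 (13.6%, 33 higher and 11 lower). The share of all genes was then 7.12%, so the number of nearest genes called depended on this choice (closing section). DESeq2 called 6 of 326 nearest genes (1.84%, 7 without an adjusted p) and 183 of 30677 genes (0.597%, 13085 without an adjusted p). No nearest gene changed by 1.5-fold or more, against 4.39% of all genes, and the median standard error of their log2 fold changes was 0.06. At an unadjusted p under 0.05 in edgeR without a replicate block there were also 44 nearest genes (13.6%, against 10.9% of all genes). The log2 fold changes of the nearest genes had a median of 0.02, from -0.37 to 0.52, and an SD of 0.114, against 0.26 over all genes. Nearest genes also had higher counts, with a median of 126 CPM in DMSO, against 10.5 CPM for all genes tested. The part of count noise in the smaller spread and the lack of 1.5-fold changes was not tested. The log2 fold change was above 0 in 204 (63.2%), against 49.7% of all genes. The 3 MB-3 libraries all exceeded the 3 DMSO libraries in 55 (17.0%, against 8.22% of all genes) and all fell short of them in 10 (3.1%, against 7.37%). Covered share and log2 fold change were nearly unrelated across peaks (Spearman -0.04, n = 343). Leaving out 1 library in turn gave 0 to 520 calls over all genes and 0 to 8 among nearest genes, both highest without DMSO B. In bulk RNA, fewer cells that express a gene and less RNA per cell cannot be told apart.

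Socs3, which encodes a feedback inhibitor of LIF and JAK/STAT signalling, was the gene called in edgeR without a replicate block. DESeq2 called 3 nearest genes lower and 3 higher. It stood at 46.8, 46.7 and 45.1 RPKM in DMSO A, B and C and at 35.3, 38.7 and 37.2 RPKM in MB-3 A, B and C. The groups did not overlap. The log2 fold change was -0.32 ± 0.06 (SE, edgeR adjusted p = 0.0485, n = 3 per group), and with the gene on chromosome 11 from 117966079 to 117970047 on GRCm38, no gene on the other strand overlapped it. Its 1715-bp peak at chr11:117828732-117830446 on mm9 kept 36.1% as a single 619-bp MB-3 peak and lost 1019 bp downstream and 77 bp upstream. The call was lost when any 1 library other than DMSO B was left out, with edgeR adjusted p from 0.0757 to 0.329, while the fold change stayed between -0.35 and -0.28.

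Mycn, Jarid2 and Tet1 had higher means in MB-3. None passed the threshold in edgeR without a replicate block, while DESeq2 called Mycn (DESeq2 adjusted p = 0.00631) and Jarid2 (DESeq2 adjusted p = 0.0138). They come from the lists of pluripotency and chromatin genes described below. Among the nearest genes tested, the log2 fold change was above 0 in 7 of 8 pluripotency genes and 8 of 14 chromatin genes, against 63.2% of all nearest genes. Mycn, a proto-oncogene of the Myc family that sustains ES cell growth, stood at 45.6, 50.6 and 48.8 RPKM in DMSO and at 56.0, 57.6 and 60.2 RPKM in MB-3, all higher (log2 fold change 0.26 ± 0.06, edgeR adjusted p = 0.0999, n = 3 per group). Its 2890-bp peak at chr12:12945761-12948650 split into 3 MB-3 peaks that covered 72.1%. Jarid2, a cofactor of Polycomb repressive complex 2, stood at 36.6, 36.0 and 29.4 RPKM in DMSO and at 43.1, 41.0 and 41.6 RPKM in MB-3, all higher again (0.30 ± 0.08, edgeR adjusted p = 0.163, n = 3 per group). Its peak at chr13:44826750-44828892 kept 85.4% of 2143 bp. Tet1 stood at 27.3, 23.5 and 21.6 RPKM in DMSO and at 32.2, 26.9 and 28.9 RPKM in MB-3, where DMSO A lay above MB-3 B (0.28 ± 0.09, edgeR adjusted p = 0.240, n = 3 per group). Its members kept 39.4% and 46.6%. The genes with the 3 widest named peaks went either way. Spry2 stood at 50.9, 52.9 and 45.1 RPKM in DMSO and at 56.0, 53.5 and 56.6 RPKM in MB-3 (0.16 ± 0.06, edgeR adjusted p = 0.390, n = 3 per group). Enc1 had 23.0, 23.3 and 23.5 RPKM in DMSO and 26.8, 24.4 and 27.8 RPKM in MB-3 (0.18 ± 0.06, edgeR adjusted p = 0.283, n = 3 per group). The groups did not overlap in either gene. Pim3 stood at 82.8, 94.4 and 86.5 RPKM in DMSO and at 75.4, 79.6 and 83.5 RPKM in MB-3, where MB-3 C lay above DMSO A (-0.14 ± 0.06, edgeR adjusted p = 0.426, n = 3 per group). With the replicate letter as a block, Mycn, Jarid2, Tet1, Spry2, Enc1 and Pim3 each passed the threshold in edgeR (closing section).

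**Figure D5:**
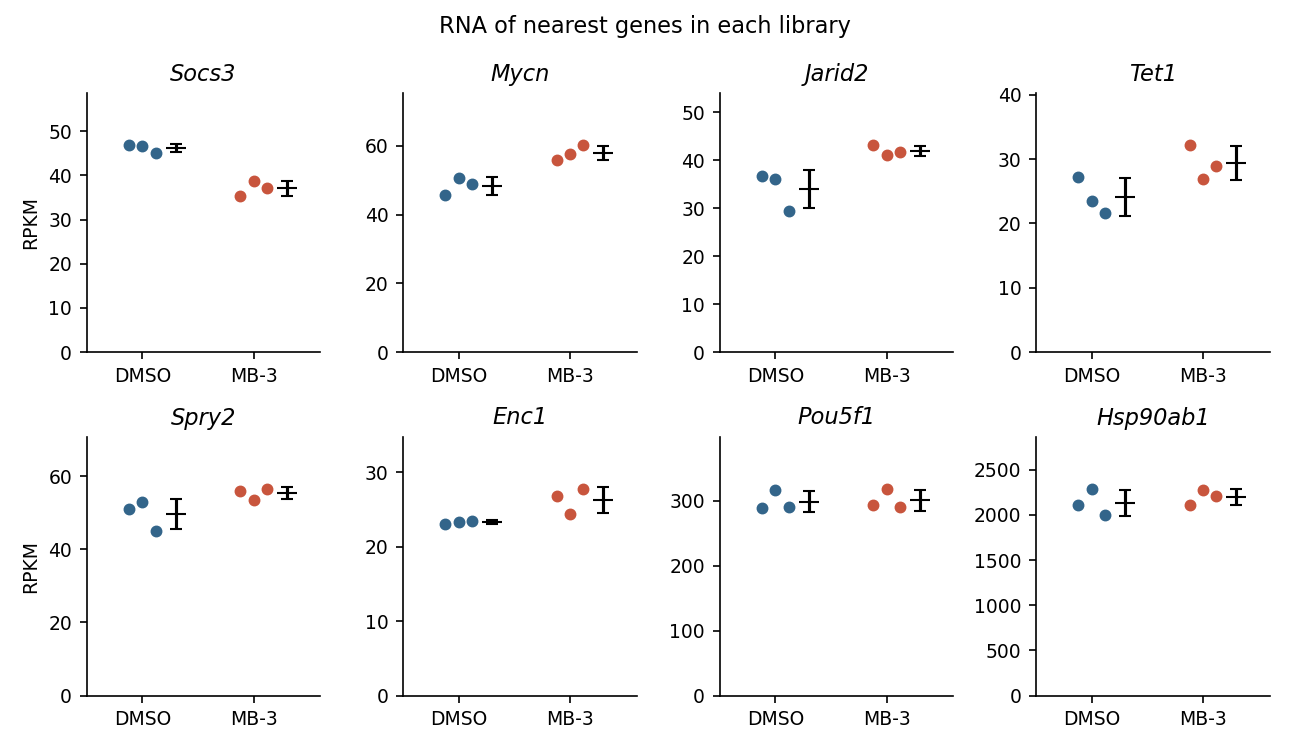
RNA level (y axis, RPKM, from 0) of 8 nearest genes of kept broad peaks in each of the 3 DMSO (blue) and 3 MB-3 (red) libraries, with the mean and SD beside them in black. Socs3 lies lower in every MB-3 library, Mycn, Jarid2, Spry2 and Enc1 lie higher, and Tet1, Pou5f1 and Hsp90ab1 overlap.

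Peaks nearest to ribosomal protein genes had a higher median covered share than all members, named or not, a difference that was not tested. Those of Rpl30, Rps10, Rpl27 and Rpl35a lay below the median of all members. Coverage near translation factors varied widely. Of 83 cytosolic ribosomal protein genes 26 were nearest to a named member, with a median covered share of 77.1% (43.2 to 95.3%), against 57.0% over all members, a median width of 1810 bp and 10 of 26 peaks split. Their median level was 136 RPKM in DMSO and 128 RPKM in MB-3, and 22 of the 26 had a log2 fold change below 0 (median -0.08, none called in edgeR), as had 72 of the 83 in the whole list (median -0.07). Rpl8, a protein of the large subunit, stood at 1485, 1717 and 1573 RPKM in DMSO and at 1404, 1552 and 1517 RPKM in MB-3, with overlapping groups, and kept 74.1% of a 1521-bp peak. Rpl23a kept 64.8% of 2770 bp at chr11:77995327-77998096, and stood at 69.7 ± 5.7 RPKM in DMSO and 66.5 ± 5.5 RPKM in MB-3 (SD, n = 3). Levels of these genes are uncertain, since they have many near-identical pseudogenes with which reads can be shared, and the lowest, Rpl24 at 1.24 RPKM, was named here after its value was seen. Translation factors were nearest to 11 members with a median of 64.1% covered (18.6 to 94.0%). Eif4a2, an RNA helicase of translation initiation, had members of 2657 bp and 1602 bp, and at the wider one MB-3 peaks reached 388 bp and 381 bp past the edges and covered 94.0%. Its RNA was 103 ± 1.4 RPKM in DMSO and 104.0 ± 1.0 RPKM in MB-3 (SD, n = 3). Eef1b2, an elongation factor gene, kept 1314 of 2627 bp, with 700 bp lost upstream and the MB-3 peak reaching 198 bp past the downstream edge.

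Genes of ribosome assembly were nearest to 11 members with a median of 64.0% covered and a lowest value of 47.9%, and splicing and RNA-binding genes to 15 members with 69.8%. Among the former, Pno1, needed to mature the small subunit, kept 48.3% of 1814 bp, and Mybbp1a, a nucleolar protein gene, kept 52.6% of 1796 bp. Among the latter, Srsf3, which encodes a serine/arginine-rich splicing factor, kept 71.6% of 2137 bp and stood at 33.5 ± 1.5 RPKM in DMSO and 33.7 ± 1.2 RPKM in MB-3 (SD, n = 3). Ewsr1, an RNA-binding protein gene, kept 69.0% of 2802 bp at chr11:4997623-5000424. Of the 14 splicing genes tested 11 had a log2 fold change above 0 (median 0.04) and none was called in edgeR.

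Chaperone genes were nearest to 13 members with a median covered share of 48.0% (30.6 to 77.4%) and had a median level of 199 RPKM in DMSO and 195 RPKM in MB-3, with none of 12 called in edgeR and a median log2 fold change of 0.01. Hspd1, the mitochondrial Hsp60, shares a divergent promoter region with Hspe1, and its 2224-bp peak at chr1:55142486-55144709 lost 1096 bp downstream and 60 bp upstream. Its RNA stood at 389, 397 and 354 RPKM in DMSO and at 397, 431 and 403 RPKM in MB-3, higher in every MB-3 library by a small margin (0.11 ± 0.07, edgeR adjusted p = 0.565, n = 3 per group). Mitochondrial proteins were nearest to 11 members with a median of 43.8% covered (15.3 to 80.7%). Atp5g2, a subunit of ATP synthase, lost 870 bp downstream of a 1645-bp peak, and stood at 52.1, 56.6 and 51.8 RPKM in DMSO and at 46.5, 50.3 and 48.9 RPKM in MB-3, all lower (-0.14 ± 0.06, edgeR adjusted p = 0.405, n = 3 per group). Vdac1, a channel of the outer membrane, kept 73.0% of 1868 bp and stood at 131 ± 6.8 RPKM in DMSO and 136 ± 5.9 RPKM in MB-3 (SD, n = 3).

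Regulatory genes had peaks at both ends of the range. Feedback inhibitors of signalling were nearest to 7 members, of which a median of 38.6% was covered, the lowest of the lists with more than 2 members, and hold both the wide peak of Spry2 and the called gene Socs3. At Dusp6 the members kept 32.4% and 35.6%, and its RNA stood at 18.7, 19.0 and 20.3 RPKM in DMSO and at 20.5, 20.0 and 22.5 RPKM in MB-3 with an overlap of DMSO C and MB-3 B (0.12 ± 0.06, edgeR adjusted p = 0.522, n = 3 per group). Chromatin proteins were nearest to 17 members (median 55.8% covered, 22.5 to 87.5%), 8 of 14 genes with a log2 fold change above 0 and none called in edgeR, while DESeq2 called Jarid2. Pluripotency and ES cell factors were nearest to 9 members with a median of 66.6% covered and a median width of 2247 bp, against 1507.5 bp over all members. Pou5f1 kept 66.6% and stood at 289, 317 and 291 RPKM in DMSO and at 294, 319 and 290.1 RPKM in MB-3, with overlapping groups. Esrrb, an orphan nuclear receptor of naive pluripotency, kept 34.9% of 1882 bp at chr12:87843207-87845088 in pieces 872 bp apart. Its RNA was 115.6, 111.6 and 108.1 RPKM in DMSO and 105.7, 106.5 and 107.6 RPKM in MB-3, with each MB-3 value below each DMSO value (-0.07 ± 0.06, edgeR adjusted p = 0.697, n = 3 per group). Cell cycle and p53 genes were nearest to 9 members with a median of 55.8% covered, among them Ccnt2, a cyclin of the elongation factor P-TEFb, with 78.9% of 1684 bp. Of a list of 25 H3K9 acetyltransferases, deacetylases and SAGA or ATAC subunits, which is not complete, Kat2b was the single gene nearest to a named member. The 440 members without a name could not be searched for the others. Taf9, a subunit of SAGA and of TFIID outside that list, was nearest to a 2082-bp peak at chr13:101420420-101422501 that kept 45.2% under 2 MB-3 peaks, with Rad17 as the other gene assigned to it. The 1309-bp peak of Kat2b at chr17:53721588-53722896 kept 38.7% and lost 592 bp downstream, and its RNA was 12.9, 11.98 and 10.7 RPKM in DMSO and 12.03, 11.6 and 12.3 RPKM in MB-3, with overlapping groups.

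Markers of other cells were low beside those of ES cells, with none at 0. The summed level over the 6 libraries was 63.3 to 124 CPM for primitive endoderm (5 genes, Sparc the most abundant), 68.2 to 79.3 CPM for trophoblast (5 genes, Tfap2c), 4.76 to 7.89 CPM for fibroblasts (5 genes, Thy1), 111 to 129 CPM for neuroectoderm (4 genes, Tubb3) and 4.39 to 36.5 CPM for mesendoderm (4 genes, T). The last was 18.7, 10.6 and 36.5 CPM in DMSO A, B and C and 5.67, 4.39 and 8.37 CPM in MB-3, lower in every MB-3 library. The fibroblast sum was 6.98, 6.02 and 7.89 CPM in DMSO and 4.82, 5.15 and 4.76 CPM in MB-3, also lower in every MB-3 library, and the other 3 sums overlapped between the groups. No marker of these 5 lists passed the test (edgeR, 0 of 19 tested, with 10 at an unadjusted p under 0.05, against 10.9% of all genes, 8 of them with a negative log2 fold change), and DESeq2 called 2, Mixl1 and Col1a2. None of these marker genes was nearest to a named member, and the part of other cells in the RNA values of nearest genes was not tested. RNA values of Rpl30, Brd2, Rpl23a, Ewsr1, Hspd1, Jarid2, Pou5f1, Kat2b, Eif4a2, Eef1b2, Mybbp1a, Pno1 and B3gnt2 are uncertain, because each overlaps a gene on the opposite strand and the use of strand in counting is not given in the sources used here.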

How the data were processed

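Both H3K9ac peak lists were deposited by the authors as positions only. The authors aligned biological duplicates to mm9 with BWA, merged them with SAMtools and called peaks against input with MACS2 at a q-value under 0.01. RNA values are raw counts per gene as deposited, from single-end poly(A) reads aligned to mm10 with Bowtie and counted at exons. Versions and use of strand are not given in the sources used here. Start positions were raised by 1, and coordinates were kept on their own build.

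Overlap, edge loss and gaps were computed in Python 3.11.15 with pandas 2.3.3. Intervals of shares are Wilson and those of medians binomial order-statistic intervals, both at 95% and for counting error only. Edge loss is the distance from a DMSO edge to the outermost MB-3 edge. Nearest genes are the names assigned by the study with GREAT, which places peaks by gene start sites, held here for part of the lists, with 15 matched through synonyms. RNA was tested in edgeR 4.0.16 (TMM, filterByExpr, quasi-likelihood test, Benjamini-Hochberg over 20027 of 30677 genes). RPKM used TMM-scaled library sizes and the union of exons in GENCODE M21. The study used DESeq2, which is an alternative here. The labels do not state that cultures were independent, so p-values measure the spread between these samples. On simulated data for MB-3 against DMSO, with 19771 genes and 200 changed, the test called 80% of the 1.5-fold and 92% of the 2-fold changes, and 11.4% of its calls were unchanged genes.

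Named genes are the nearest genes of the 10 widest members with a name, of the 3 most split, most covered and least covered, of the 2 widest of each gene list, those past the test and the 3 with the highest and lowest RPKM. Members, lists and tests were chosen with earlier results of these data known. Other settings are given in the closing section.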

Additional observations from a re-analysis of the deposited data

How the results depend on the processing

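Requiring at least 50% of a DMSO peak to be covered left 482 kept broad peaks (54.3% of the broad ones), with a median of 69.9% covered, 39.4% split and median losses of 124 bp at the left and 118 bp at the right edge. A width limit of 1000 bp gave 1269 kept peaks (83.8% of the DMSO peaks of that width), of which 22.7% were split, with a left loss of 167 bp. A limit of 1500 bp gave 401 kept peaks (94.1% of that width), of which 42.6% were split, with a left loss of 262 bp. Leaving out MB-3 peaks under 300 bp left 757 kept (85.3%) and changed the split share to 22.7%, and merging MB-3 peaks within 200 bp of each other brought the split share to 17.5%. Losses by strand, gap lengths and the share lost at edges were not recomputed under other settings.

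The number of genes called was more fragile. In place of 41 genes and 1 nearest gene of a kept broad peak, omitting the filter gave 194 and 4, requiring a CPM of at least 1 in 3 libraries gave 24 over all genes, and DESeq2 gave 183 and 6, Mycn and Jarid2 among the named ones. Leaving out 1 library in turn gave 0 to 520 genes and 0 to 8 nearest genes, with 520 and 8 without DMSO B, 62 and 0 without MB-3 C, 3 and 0 without DMSO A, 5 and 0 without DMSO C, and 0 of both without MB-3 A or MB-3 B (at an unadjusted p under 0.05, 1440 and 1716 genes). The cause was not tested. Without DMSO B, Mycn (edgeR adjusted p = 0.0175) and Jarid2 (edgeR adjusted p = 0.0284) passed.

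The replicate letters were taken as names and not as pairs, since deviations from the group means correlated at 0.098 for A, 0.261 for B and 0.213 for C, and not all over 0.1. Every library correlated best with its own letter. With the letter as a replicate block, 1425 genes (7.12%, 644 higher and 781 lower) and 44 of 323 nearest genes (13.6%, 33 higher and 11 lower) passed, as did 9 of the 19 tested markers of other cells. The nearest genes included Spry2, Enc1, Pim3, Mycn, Nup153, Tet1 and Jarid2 beside Socs3.

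Peak lists without heights, read depths or replicates give no error for a single edge or gap.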
